A study of Mus musculus with 13 samples.

Results

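The genes described here encode 9 receptors that guide B cells between and within lymphoid organs: the chemokine receptors Cxcr5, Cxcr4, Ccr7, Ccr6 and Ccr9, the oxysterol receptor Gpr183, and the sphingosine 1-phosphate (S1P) receptors S1pr1, S1pr3 and S1pr4. They were taken by symbol from a list of homing receptors, each matched 1 of the 47643 genes in the deposited table, and all 9 were among the 13947 genes tested. RNA was sequenced from 6 Whsc1-KO and 7 WT libraries of splenic B cells from C57BL/6 mice, cultured for 48 h with lipopolysaccharide (LPS) at 25 µg/ml, a bacterial ligand of Toll-like receptor 4 that makes B cells divide. Whsc1-KO cells lacked Whsc1, a histone H3 lysine 36 methyltransferase also called NSD2, in the germline (Whsc1-/-), and WT cells came from littermate embryos. In both groups fetal liver blood-forming cells had been grown in irradiated RAG1-KO mice, which have no mature lymphocytes of their own but can keep host cells of other lineages. The ages of the animals and the number of donors or recipients behind a library are not given in the sources used here. B cells were enriched by taking out cells that carry CD43.

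All of these receptors are membrane-spanning proteins that signal through heterotrimeric G proteins, mostly of the inhibitory class, to turn an outside gradient into movement. Cxcr5 draws B cells into follicles, Ccr7 and Gpr183 place them along the border with the T cell zone and the outer follicle, Cxcr4 holds cells in bone marrow and in the dark zone of germinal centres, and S1pr1 lets lymphocytes leave tissue for blood or lymph. An activated B cell changes this set as it divides and becomes a plasmablast, which alters where it settles.

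Whsc1-KO libraries held 39101317 to 49443099 reads in genes and WT libraries 38881663 to 53019516. Whsc1 (chromosome 5, 33820725 to 33897975, plus strand, GRCm38) ran from 3733 to 5261 normalized counts (reads divided by a size factor of the library) in Whsc1-KO and from 5537 to 7459 in WT, and was lower in Whsc1-KO (log2 fold change -0.54, SE 0.09, limma adjusted p = 0.00049). Reads from all exons together say nothing of the deleted part. Whsc1-KO replicates 4 to 6 stood apart from replicates 1 to 3 in many genes, and the labels give no batch for them. Summed myeloid markers were 16331 to 18229 normalized counts in Whsc1-KO replicates 4 to 6, 3219 to 4529 in Whsc1-KO replicates 1 to 3 and 1717 to 3939 in WT. Of 8 tested myeloid markers 7 were higher in Whsc1-KO, where 26.1% of all genes tested were higher and 25.7% lower. Without Whsc1-KO replicates 4 to 6, 2 of the 8 were higher, where 14% of all genes were higher and 15.6% lower. Mpo, Elane and S100a9 stayed under 10 in every library. Summed erythroid markers were 24827 to 206888 in Whsc1-KO replicates 4 to 6, 11742 to 15666 in replicates 1 to 3 and 7820 to 11942 in WT, with 6 of 7 tested higher. Summed B cell markers were 387870 to 402065 in Whsc1-KO replicates 4 to 6, 517178 to 561644 in replicates 1 to 3 and 588898 to 679065 in WT, with 7 of 10 lower, so the labelled cell type was present in every library. Plasmablast markers summed to 106174 to 228426 in Whsc1-KO and 86356 to 199827 in WT, with 4 of 8 higher. T cell markers summed to 940 to 1296 in Whsc1-KO and 763 to 1198 in WT, and NK cell markers to 80.9 to 365 in Whsc1-KO and 70.6 to 156 in WT, with Cd3d, Cd3e, Cd8a, Themis, Ncr1 and Klrb1c under 10 in every library. Dendritic cell markers, a list that holds Ccr9 itself, summed to 18244 to 24727 in Whsc1-KO and 21681 to 26992 in WT, with Clec9a and Siglech under 10. Of 7 tested dendritic markers, Ccr9 included, 3 were higher and 1 lower, with 0.46 as their median log2 fold change. Without Whsc1-KO replicates 4 to 6, 2 erythroid and 2 plasmablast markers were higher and 5 B cell markers lower. Of the dendritic markers 2 were then higher and 1 lower. The part of these cells in the receptor results was not tested, but each receptor gene is given with and without Whsc1-KO replicates 4 to 6. From Xist and Y-linked genes, Whsc1-KO replicates 4 and 5 and WT replicates 1 to 5 were female and the other libraries male. Within replicates 1 to 3, therefore, sex and genotype cannot be told apart. Whsc1-KO replicate 6 was male, and it lay with replicates 4 and 5 in Ccr7, Ccr6, Gpr183, S1pr3, Cxcr4 and Ccr9. In S1pr1 it was the lowest library, at 683 normalized counts, with 1186 in replicate 4. The part of sex in the split among Whsc1-KO libraries was not tested.

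Of the 9 receptor genes, 1 was higher in Whsc1-KO (Ccr9) and 4 were lower (Ccr7, S1pr1, Gpr183 and Cxcr5), by limma on log2(normalized count + 1) with an adjusted p under 0.05 over all genes tested. In the same test 26.1% of all genes were higher and 25.7% lower. Log2 fold changes had a median of -0.56 over the 9 receptor genes and -0.0032 over all genes tested. Cxcr4, Ccr6, S1pr3 and S1pr4 did not pass. In bulk RNA, fewer cells with a transcript and less transcript per cell cannot be told apart.

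**Figure D1:**
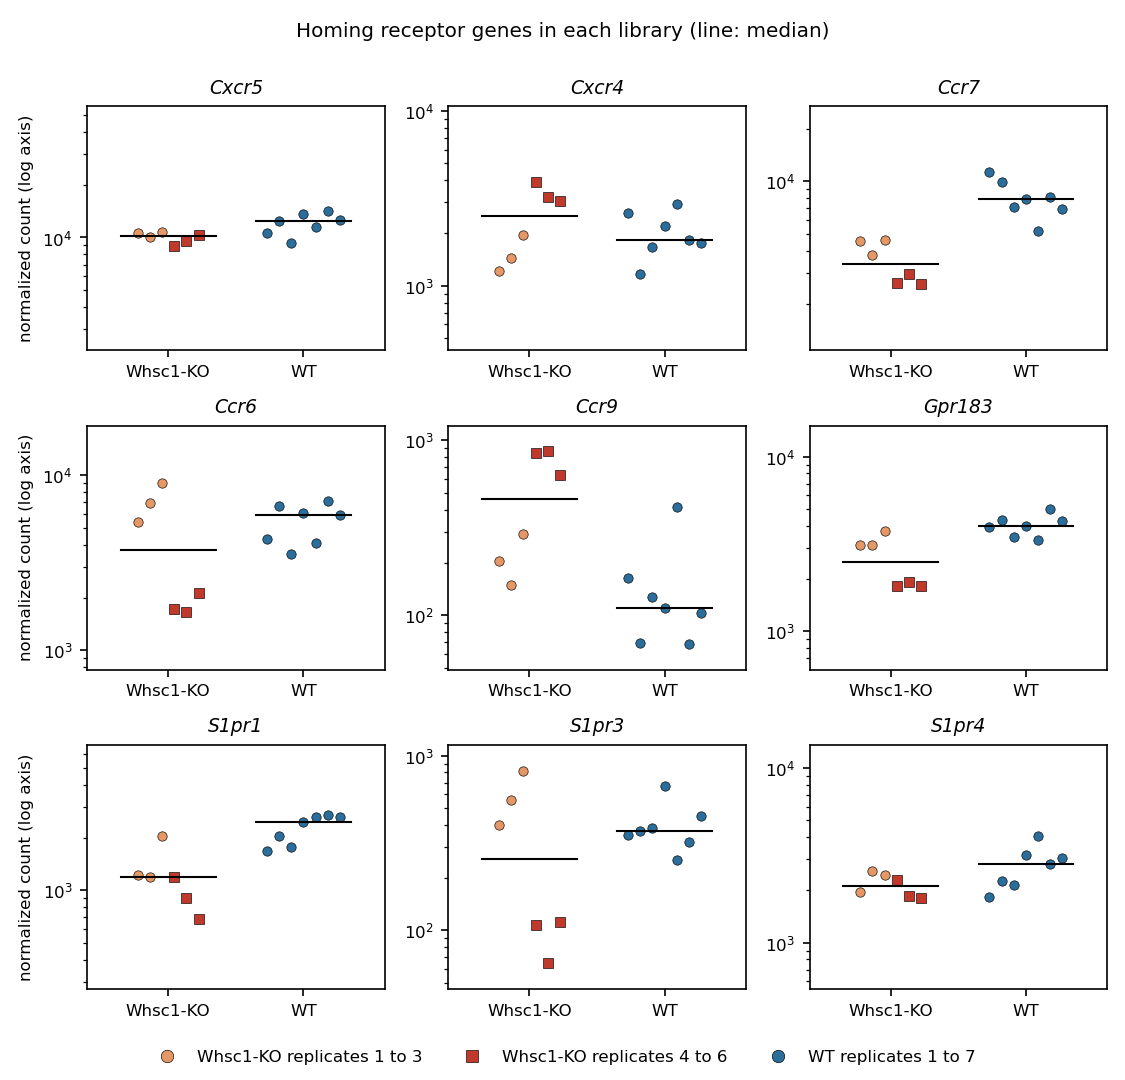
Normalized counts (log axis) of the 9 receptor genes in each library, with Whsc1-KO replicates 1 to 3 as circles, Whsc1-KO replicates 4 to 6 as squares, WT replicates as circles on the right, and a line at each group's median. Ccr7 is the gene whose Whsc1-KO libraries, at 2573 to 4623, all lie below WT, at 5197 to 11312, and in Ccr6 and S1pr3 the Whsc1-KO libraries split into a high and a low set around the WT level.

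Ccr7, the receptor for Ccl19 and Ccl21 that draws activated B cells toward the T cell zone, had the largest called decrease of the 9 receptor genes. It is on chromosome 11, 99144196 to 99155077, minus strand (GRCm38, as for all coordinates here). Whsc1-KO libraries had a lowest, median and highest normalized count of 2573, 3375 and 4623, against 5197, 7912 and 11312 in WT. No Whsc1-KO library reached the lowest WT library, an arrangement that 10.2% of all tested genes shared. Its log2 fold change was -1.20 (SE 0.19, limma adjusted p = 0.000229; 95% interval -1.60 to -0.81). Ccr7 also passed without Whsc1-KO replicates 4 to 6, at -0.87 (adjusted p = 0.00669), within replicates 1 to 3, at -1.11 (adjusted p = 0.00442), and within the later replicates (Whsc1-KO 4 to 6 and WT 4 to 7), at -1.36 (adjusted p = 9.6e-05). It was the receptor gene that passed in every one of the 28 alternative settings, with log2 fold changes from -1.46 to -0.87.

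S1pr1, the receptor that lymphocytes need to leave tissue along the S1P gradient (chromosome 3, 115710433 to 115715072, minus strand), was lower in Whsc1-KO. Its lowest, median and highest normalized counts were 683, 1189 and 2049 in Whsc1-KO and 1669, 2452 and 2695 in WT. In 5 of 6 Whsc1-KO libraries it was below every WT library, and the highest, replicate 3, lay within the WT range. S1pr1 thus had a log2 fold change of -0.97 with all libraries (SE 0.21, limma adjusted p = 0.00177; 95% interval -1.41 to -0.53). Without Whsc1-KO replicates 4 to 6 it was -0.63 (adjusted p = 0.0323). Within replicates 1 to 3 it was -0.34 and did not pass (adjusted p = 0.266).

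Gpr183, also called EBI2, senses dihydroxylated oxysterols and takes activated B cells to the outer follicle (chromosome 14, 121952551 to 121965195, minus strand). Normalized counts ran from 1810 over a median of 2505 to 3758 in Whsc1-KO, and from 3310 over 3987 to 5002 in WT. Here too 5 of 6 Whsc1-KO libraries were below every WT library, with replicate 3 inside the WT range. The fitted difference was -0.70 on the log2 scale (SE 0.18, limma adjusted p = 0.00476). Replicates 4 to 6 had 1810 to 1912 normalized counts and replicates 1 to 3 had 3099 to 3758. Without replicates 4 to 6 the log2 fold change was -0.28 and the call was lost (adjusted p = 0.0947).

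Cxcr5, the receptor for Cxcl13 that brings B cells into follicles, had the smallest called difference of the receptor genes (chromosome 9, 44511787 to 44561877, minus strand). The lowest, median and highest library had 8947, 10221 and 10778 in Whsc1-KO, against 9355, 12356 and 14246 in WT. The ranges overlapped, with 1 Whsc1-KO library below all WT libraries. On the log2 scale the difference was -0.25 (SE 0.09, limma adjusted p = 0.0307), and the 95% interval ran from -0.44 to -0.06. The call did not hold without Whsc1-KO replicates 4 to 6 (-0.18, adjusted p = 0.235), on leaving out any 1 of Whsc1-KO replicates 4 and 5 and WT replicates 2, 4, 6 and 7 (adjusted p = 0.0527 to 0.0729), or after quantile normalization (adjusted p = 0.0678).

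Ccr9, the receptor for Ccl25 that serves homing to the small intestine (chromosome 9, 123678439 to 123784330, plus strand), was the receptor gene that rose. Normalized counts were 149, 464 and 866 in Whsc1-KO (lowest, median and highest), and 68.4, 110 and 418 in WT. Whsc1-KO replicates 4 to 6 lay at 637 to 866, above every WT library, and replicates 1 to 3 at 149 to 290, within the WT range. In WT, replicate 5 with 418 stood apart from the next, at 162. Ccr9 had a log2 fold change of 1.68 with all libraries (SE 0.49, limma adjusted p = 0.0108; 95% interval 0.63 to 2.72). Without Whsc1-KO replicates 4 to 6 it was 0.73 and did not pass (adjusted p = 0.259). Of the 10260 exon bases annotated to Ccr9, 1932 are shared with AC165425.1 on the other strand and 269 with Gm17200 on the same strand, and the counting settings are not given in the sources used here.

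Cxcr4, the receptor for Cxcl12 used by plasma cells to reach bone marrow (chromosome 1, 128588199 to 128592293, minus strand), did not pass with all libraries. Its normalized counts ran from 1215 over a median of 2502 to 3895 in Whsc1-KO and from 1163 over 1827 to 2921 in WT. Whsc1-KO replicates 4 to 6, at 3056 to 3895, were above every WT library, and replicates 1 to 3, at 1215 to 1948, were inside the WT range. With all libraries the log2 fold change was 0.22 (SE 0.28, limma adjusted p = 0.53; 95% interval -0.38 to 0.82). It was -0.36 without Whsc1-KO replicates 4 to 6 and 0.67 within the later replicates (adjusted p = 0.278 and 0.00937).

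Ccr6, the receptor for Ccl20 (chromosome 17, 8236043 to 8257141, plus strand), and S1pr3, which marginal zone B cells express (chromosome 13, 51408639 to 51422797, plus strand), were the most divided receptor genes. For Ccr6 the lowest, median and highest normalized counts were 1647, 3758 and 9035 in Whsc1-KO, against 3564, 5958 and 7125 in WT. Whsc1-KO replicates 4 to 6 had 1647 to 2110, below every WT library, and replicates 1 to 3 had 5405 to 9035, from inside the WT range to above it. The log2 fold change of Ccr6 was -0.56 (SE 0.39, limma adjusted p = 0.243; 95% interval -1.39 to 0.28), 0.41 without replicates 4 to 6 (adjusted p = 0.179) and -1.65 within the later replicates (adjusted p = 8e-05). With sex as a term it was -0.94 and passed (adjusted p = 0.0299).

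For S1pr3 the lowest, median and highest normalized counts were 65.2, 256 and 812 in Whsc1-KO, against 253, 369 and 673 in WT. Replicates 4 to 6 had 65.2 to 111 and replicates 1 to 3 had 400 to 812, so that the Whsc1-KO libraries lay on both sides of most WT libraries. Its difference was -0.75 on the log2 scale (SE 0.52, limma adjusted p = 0.243; 95% interval -1.86 to 0.37). Within replicates 1 to 3 it was 0.62 (adjusted p = 0.0998), with WT at 349 to 387, and within the later replicates -2.10 (adjusted p = 0.000746), with WT at 253 to 673. The difference between these values was not tested.

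S1pr4, an S1P receptor found mainly in blood cells (chromosome 10, 81497747 to 81500132, minus strand), differed less. Normalized counts were 1794, 2118 and 2563 in Whsc1-KO (lowest, median and highest) and 1819, 2799 and 4074 in WT. The ranges overlapped over most of the Whsc1-KO span. The fitted difference was -0.32 on the log2 scale (SE 0.16, limma adjusted p = 0.111), with a 95% interval from -0.68 to 0.03. It was -0.21 without Whsc1-KO replicates 4 to 6 and -0.72 within the later replicates (adjusted p = 0.464 and 0.00186). Leaving out WT replicate 1, at the low end of WT with 1819, gave -0.42 and a call (adjusted p = 0.0345).

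The receptor genes differed in how Whsc1-KO replicates 4 to 6 lay against the other 10 libraries. In 5 of 9 (Ccr7, Ccr6, Gpr183, S1pr1 and S1pr3) those 3 libraries were below every other library, Whsc1-KO and WT alike, an arrangement of 16.5% of all tested genes. In 2 (Cxcr4 and Ccr9) they were above every other library, as were 19.4% of all tested genes. Against replicates 1 to 3, their mean level was 0.160 times as high for S1pr3, 0.256 times for Ccr6 and 0.556 times for Gpr183. It was 0.620 times for S1pr1, 0.630 times for Ccr7, 2.21 times for Cxcr4 and 3.65 times for Ccr9. In S1pr1 the sets lay close, at 1186 normalized counts in Whsc1-KO replicate 4 and 1191 in Whsc1-KO replicate 2. All 9 receptor genes passed within the later replicates, 2 higher and 7 lower, where 30.0% of all genes were higher and 30.1% lower. Without Whsc1-KO replicates 4 to 6, Ccr7 and S1pr1 passed, both lower, where 14% of all genes were higher and 15.6% lower. Within replicates 1 to 3, where 6.79% of all genes were higher and 8.76% lower, Ccr7 passed. With a sex term 1 was higher and 5 lower, against 27.1% and 27.4% of all genes, and with library weights 2 were higher and 7 lower, against 33.4% and 33.7%.

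**Figure D2:**
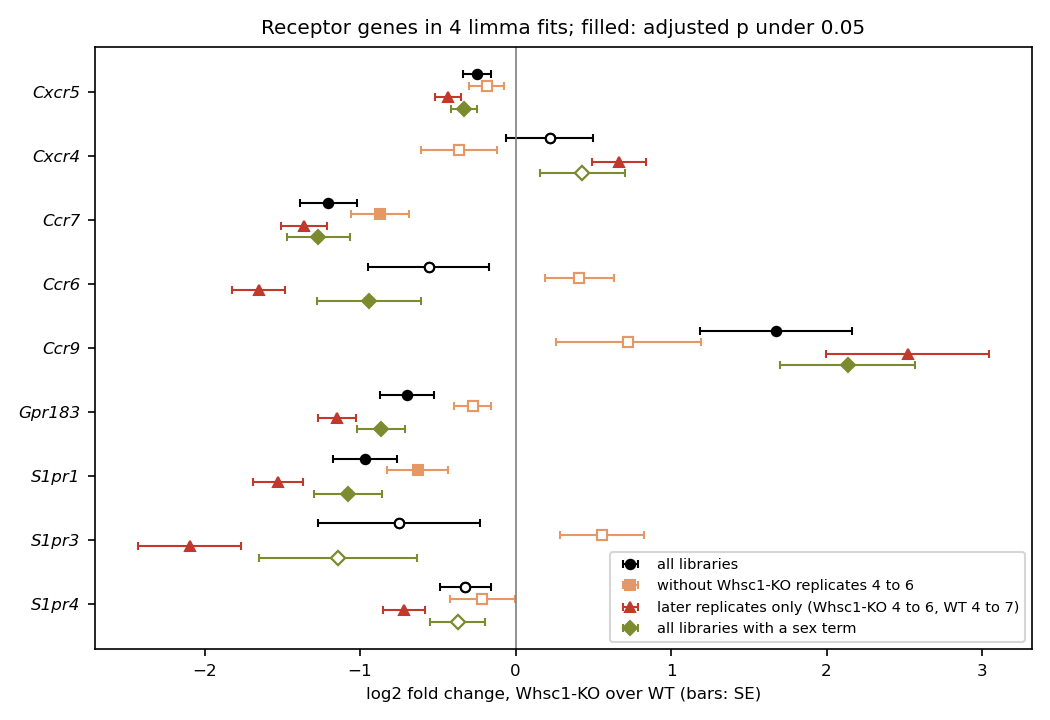
Log2 fold change of Whsc1-KO over WT (horizontal axis) with its standard error for the 9 receptor genes in 4 limma fits, filled where the adjusted p was under 0.05. Ccr7 lies between -1.36 and -0.87 and is filled in all 4, while Ccr6, S1pr3 and Cxcr4 change side when Whsc1-KO replicates 4 to 6 are left out.

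Promoter sequence is shown for the receptor genes whose Whsc1-KO replicates 4 to 6 lay outside all other libraries, below them in 5 genes and above in 2. RefSeq windows on GRCm38.p6 matched 6 of the 9 genes; Ccr7, Cxcr5 and S1pr1 are named only. The windows hold the 250 bases before the annotated start, read 5′ to 3′ on the gene's strand and cut back to 208 bases for Ccr9 and 248 for Gpr183, where a GENCODE exon begins. They are chr9:123766961-123767168 (plus) for Ccr9, chr1:128592300-128592549 (minus) for Cxcr4, chr13:51408368-51408617 (plus) for S1pr3, chr14:121965196-121965443 (minus) for Gpr183, and chr17:8235793-8236042 and chr17:8242276-8242525 (plus) for 2 starts of Ccr6. The Ccr9 window and the window at chr17:8242276-8242525 lie inside the spans given above for Ccr9 and Ccr6, not upstream of the whole gene. Capitals mark CACCC or its reverse complement GGGTG, the core bound by Krüppel-like factors such as Klf2.
Ccr9: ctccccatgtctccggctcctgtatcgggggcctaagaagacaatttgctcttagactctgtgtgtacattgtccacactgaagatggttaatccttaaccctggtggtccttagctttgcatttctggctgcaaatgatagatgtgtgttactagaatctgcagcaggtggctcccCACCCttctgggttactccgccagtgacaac
Cxcr4: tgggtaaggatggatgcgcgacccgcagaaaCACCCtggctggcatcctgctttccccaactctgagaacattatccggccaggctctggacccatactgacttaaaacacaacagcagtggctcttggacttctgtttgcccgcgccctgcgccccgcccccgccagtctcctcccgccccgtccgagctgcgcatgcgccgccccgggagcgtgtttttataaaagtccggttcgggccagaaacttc
S1pr3: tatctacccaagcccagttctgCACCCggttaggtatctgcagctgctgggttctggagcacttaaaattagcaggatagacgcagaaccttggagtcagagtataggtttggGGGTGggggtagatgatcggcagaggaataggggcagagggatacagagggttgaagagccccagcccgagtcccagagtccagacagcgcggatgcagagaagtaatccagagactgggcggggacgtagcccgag
Gpr183: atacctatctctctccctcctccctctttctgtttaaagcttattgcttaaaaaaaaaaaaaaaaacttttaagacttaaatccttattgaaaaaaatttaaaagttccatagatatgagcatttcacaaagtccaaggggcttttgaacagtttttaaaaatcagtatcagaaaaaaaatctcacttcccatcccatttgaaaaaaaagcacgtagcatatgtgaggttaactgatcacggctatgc
Ccr6, first start: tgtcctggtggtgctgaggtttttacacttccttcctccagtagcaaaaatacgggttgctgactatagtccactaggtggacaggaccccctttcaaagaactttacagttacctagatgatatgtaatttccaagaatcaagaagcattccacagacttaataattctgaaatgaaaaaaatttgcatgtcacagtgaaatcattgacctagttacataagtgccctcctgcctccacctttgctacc
Ccr6, second start: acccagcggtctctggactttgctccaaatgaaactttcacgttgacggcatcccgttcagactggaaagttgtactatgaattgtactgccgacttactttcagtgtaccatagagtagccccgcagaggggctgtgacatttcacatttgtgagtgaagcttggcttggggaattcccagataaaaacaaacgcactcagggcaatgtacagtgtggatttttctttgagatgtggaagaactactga
CACCC was found on either strand 1 time in Ccr9, 1 time in Cxcr4 and 2 times in S1pr3, and not in the Gpr183 and Ccr6 windows. The S1pr4 window, not shown, held it 1 time. These counts were the same in the full windows of 250 bases, and of 32536 RefSeq promoter windows of 250 bases 52.1% hold it. The forkhead core TGTTTAC (either strand) was in 3.17% of promoters and the E-box CACGTG in 6.04%, and neither was in a window of the 6 genes. TATAAA, in 12.3% of promoters on either strand, was found 2 times in Cxcr4, where its forward and reverse forms overlap. These matches describe letters in a window.

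Levels of different receptor genes were compared per kb of annotated exon. In WT the order of mean normalized counts per kb was Ccr7 (4088 ± 1014, SD, n = 7), Cxcr5 (3613 ± 512), Ccr6 (2331 ± 596), Gpr183 (1400 ± 197), S1pr4 (1152 ± 321), Cxcr4 (1114 ± 331), S1pr1 (744 ± 142), S1pr3 (89.8 ± 30.2) and Ccr9 (14.7 ± 11.9). From Ccr7 down to S1pr1, each gene's library range overlapped that of its neighbour, while S1pr1, S1pr3 and Ccr9 did not overlap. In Whsc1-KO the order began with Cxcr5 (3016 ± 211, SD, n = 6), Ccr6 (1932 ± 1349), Ccr7 (1780 ± 471) and Cxcr4 (1362 ± 598), and S1pr4 (899 ± 134) and Gpr183 (896 ± 292) came next. S1pr1 (396 ± 153) was followed, without overlap, by S1pr3 (76.6 ± 67.6), whose range overlapped that of Ccr9 (48.6 ± 31.6). Ccr7 thus ranked 3 per kb in Whsc1-KO and 1 in WT. Per kb of the longest coding transcript, Cxcr5 came first in WT, at 4230, and Ccr9, at 95.9, came above S1pr3 in Whsc1-KO.

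**Figure D3:**
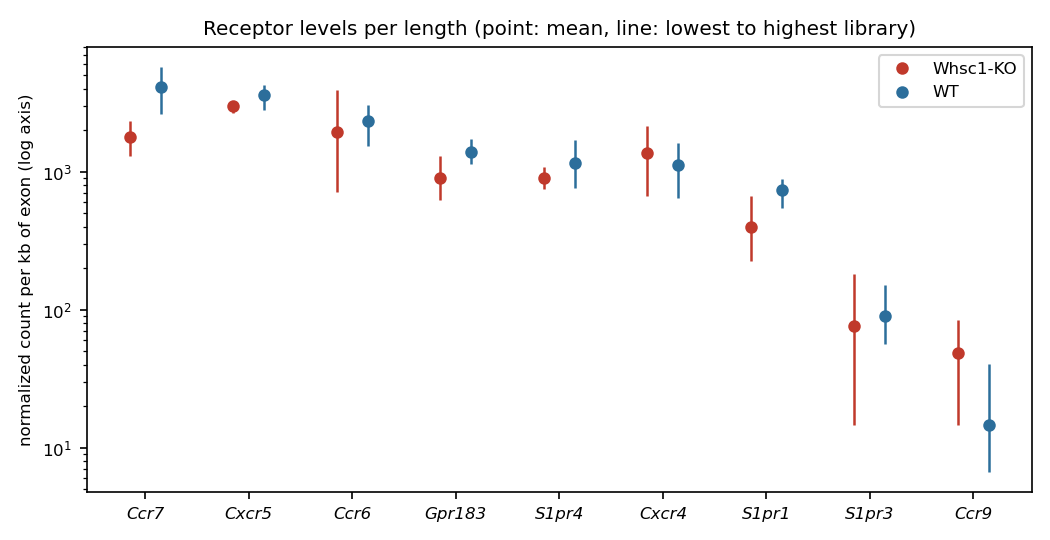
Mean normalized count per kb of exon (log axis) of each receptor gene in Whsc1-KO (left of each pair) and WT, with lines from the lowest to the highest library. The Whsc1-KO mean of Ccr7 is 1780 against 4088 in WT, and S1pr3 and Ccr9 lie lowest in both groups.

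The authors' deposited table also lists 1 receptor gene higher and 4 lower at an adjusted p under 0.05. The authors' deposited table gives shrunken log2 fold changes of -1.13 for Ccr7, -0.85 for S1pr1, -0.61 for Gpr183, -0.26 for Cxcr5 and 1.18 for Ccr9. For Ccr6 and S1pr3 the authors' deposited table has shrunken values of -0.21 and -0.16. Unshrunken, the authors' deposited table has 1.72 for Ccr9, -0.27 for Ccr6 and -0.23 for S1pr3, and the log-scale fit has 1.68, -0.56 and -0.75 in that order. By edgeR on recovered reads the same 5 receptor genes passed, 1 higher and 4 lower, against 26.6% and 24.9% of all genes, and by DESeq2 likewise, against 27.8% and 26.5%. Ccr6 and S1pr3 were at -0.26 and -0.22 (adjusted p = 0.585 and 0.73).

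Most of the other chemotactic receptors on a list of 30 were at low counts, and 16 were tested. The test called 3 of them higher and 6 lower, against 26.1% and 25.7% of all genes. Their median log2 fold change was -0.03. In the fit that omits Whsc1-KO replicates 4 to 6, the calls came to 4 higher and 3 lower, against 14% and 15.6% of all genes. Cxcr3, a receptor for interferon-induced chemokines, had 521, 716 and 963 normalized counts in Whsc1-KO (lowest, median and highest) and 17.4, 25.3 and 96.8 in WT. The groups did not overlap, as in 9.03% of all tested genes with Whsc1-KO above. The difference on the log2 scale was 4.18 (SE 0.42, limma adjusted p = 8.78e-06), with 4.20 without Whsc1-KO replicates 4 to 6. Ccr10, a mucosal homing receptor of antibody-secreting cells, had 59.1, 88.4 and 159 in Whsc1-KO and 7.62, 17.4 and 26.0 in WT, which is 2.52 on the log2 scale (adjusted p = 5.6e-05). Gpr132, which responds to lysophospholipids and lactate, and P2ry10, a lysophosphatidylserine receptor, were lower at -0.45 and -0.39 (adjusted p = 0.000112 and 0.000226). Also higher was S1pr2, the S1P receptor that confines germinal centre B cells, at 0.91 (adjusted p = 0.0032, named after its value was seen), with 0.64 in the fit that omits Whsc1-KO replicates 4 to 6 (adjusted p = 0.0828). C5ar1 and Cmklr1, receptors of myeloid cells named after their values were seen, did not reach the test: they had 198 to 246 and 59.6 to 123 normalized counts in Whsc1-KO replicates 4 to 6 and at most 10.7 and 4.46 in every other library. Of 3 tested atypical chemokine receptors, which take up chemokines without G protein signalling, Ackr2 was lower at -0.89 and Ackr4, a scavenger of the Ccr7 and Ccr9 ligands, was higher at 1.59 (adjusted p = 0.00469 and 0.0391), neither passing without Whsc1-KO replicates 4 to 6 (-0.36 and 0.28). Ackr3, a scavenger of Cxcl12, was at 0.34 with all libraries and 0.93 without those 3 (adjusted p = 0.284 and 0.00382).

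Most genes for the receptors' ligands were at or near 0 in these cultures, and Ccl25 was not. Ccl19, Ccl21a, Ccl21b, Ccl20 and Cxcl12 stayed under 10 normalized counts in every library, and Cxcl13 at or under 23.9. Ccl25, the Ccr9 ligand, was the ligand tested: it had 312 to 397 in Whsc1-KO and 468 to 555 in WT, without overlap, and was lower by limma (log2 fold change -0.55, SE 0.08, adjusted p = 0.000141). Of the enzymes that make or break down the Gpr183 ligand, Ch25h and Cyp7b1 stayed under 2 in every library. Cyp27a1, a mitochondrial sterol hydroxylase, was lower at -1.94 (adjusted p = 0.00101) from 8.30 to 40.7 normalized counts in Whsc1-KO and 38.5 to 124 in WT, and Hsd3b7 was at -0.18 (adjusted p = 0.287). Of 14 genes of S1P metabolism and export, 2 were called higher and 6 lower around a median of -0.13, against 26.1% and 25.7% of all genes. Without Whsc1-KO replicates 4 to 6 the counts were 1 and 5, against 14% and 15.6% of all genes. Cers6, a ceramide synthase, had 26.2 to 139 in Whsc1-KO and 263 to 420 in WT, or -2.25 on the log2 scale (adjusted p = 0.00046). Spns2, an S1P exporter, and Plpp1, a lipid phosphatase that can break down extracellular S1P, were lower at -0.62 and -0.60 (adjusted p = 0.0016 and 0.000694). Sgpp2, an S1P phosphatase, had 14.5 to 129 in Whsc1-KO and 0 to 3.49 in WT, where no library reached the filter's 10, so the filter fixed its direction. Sgpp2 is 1 of the 2 S1P genes counted as higher. It is also the 1 counted as higher without Whsc1-KO replicates 4 to 6, so that count holds no other gene.

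The signal transducers varied around the level of all genes. Beside the counts in this paragraph, 26.1% of all genes were higher and 25.7% lower (14% and 15.6% without Whsc1-KO replicates 4 to 6). Of 17 tested G protein subunits 3 were called higher and 4 lower around a median of -0.0031 (1 and 3 without Whsc1-KO replicates 4 to 6), and the main inhibitory subunit Gnai2, named after its value was seen, was at -0.0031 (adjusted p = 0.969). Gng2 and Gna13, of which Gna13 couples to confinement receptors such as S1pr2, were lower at -0.83 and -0.26, and Gng7 and Gnb5 higher at 1.5 and 0.95 (adjusted p = 0.000224, 0.00215, 0.000179 and 0.00705). Of these Gnb5 was lost without Whsc1-KO replicates 4 to 6 (0.51, adjusted p = 0.19). Among 11 tested RGS proteins, which end G protein signals, 2 were higher and 1 lower. Rgs1, which dampens chemokine responses of B cells, had 34.4 to 154 in Whsc1-KO and 20.1 to 48.6 in WT, or 1.40 on the log2 scale (adjusted p = 0.00412). In the fit that omits Whsc1-KO replicates 4 to 6 it was 0.82 and missed the threshold (adjusted p = 0.113). Rgs10 was at 0.50, Rgs9 at -0.84 and Rgs14 at -0.30 (adjusted p = 0.037, 0.0172 and 0.0783). Without those libraries Rgs10 and Rgs9 were lost as well (adjusted p = 0.352 and 0.0939), and Rgs3 was called higher at 0.90 and Rgs13 lower at -1.39 (adjusted p = 0.000806 and 0.0483), both named after their values were seen. Of 7 receptor kinases and arrestins, which switch off active receptors, Adrbk2 (Grk3) was higher at 1.07 and Grk4 and Arrb1 lower at -0.58 and -0.66 (adjusted p = 0.0156, 0.00322 and 0.00873). Grk5 did not pass (-0.45, adjusted p = 0.12). Adrbk2 and Grk4 also passed without Whsc1-KO replicates 4 to 6, and Arrb1 did not (-0.32, adjusted p = 0.198).

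Of 30 migration effectors the test called 3 higher and 9 lower, where 26.1% of all genes were higher and 25.7% lower. Their median was -0.03. Without Whsc1-KO replicates 4 to 6, limma called 0 higher and 7 lower (3 and 10 at an unadjusted p under 0.05). In that fit 14% of all genes were called higher and 15.6% lower at an adjusted p under 0.05. Their share at an unadjusted p was not counted. Vav3, an activator of Rac proteins, had 239 to 309 normalized counts in Whsc1-KO and 432 to 725 in WT (log2 fold change -1.05, SE 0.11, limma adjusted p = 1.5e-05). Rhoh and Rasgrp2, a small GTPase and an activator of the integrin switch Rap1, were lower at -0.78 and -0.60, and Wasf2, which drives actin branching, at -0.18 (adjusted p = 0.000415, 0.00217 and 0.00322). In these 4 genes, named for their small adjusted p, all Whsc1-KO libraries were below all WT libraries, as in 10.2% of all tested genes, and each was lower without Whsc1-KO replicates 4 to 6 as well. Of 13 tested adhesion genes 8 were called lower and 3 higher, where 25.7% of all genes were lower and 26.1% higher, and their median was -0.41. The counts without Whsc1-KO replicates 4 to 6 were 5 lower and 2 higher, where 15.6% and 14% of all genes were. Itgb1 and Itgal, integrin chains used to hold on to vessel walls and other cells, had log2 fold changes of -0.87 and -0.46, and Cd47, a ligand of inhibitory receptors on phagocytes, had -0.41 (adjusted p = 7e-06, 0.000462 and 0.000302). Cd24a, a glycoprotein high in immature B cells, was higher at 0.76 (adjusted p = 0.000185).

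Of 16 genes that set the transcription or surface level of homing receptors, 7 were lower (median -0.28), where 25.7% of all genes were. The other 9 did not pass. At an unadjusted p under 0.05, 8 of the 16 were lower and 0 higher. No share of all genes was counted at that threshold. Ets1 was at -0.42, Nfkb2 at -0.38, and Foxo1 and Foxp1, forkhead factors of mature B cells, at -0.34 each (adjusted p = 0.000578, 0.00159, 0.00346 and 0.00355). The call on Ets1 held in all 28 alternative settings. Nfkb2 and Foxo1 lost theirs in 1 setting each and Foxp1 in 2. Klf2, which supports S1pr1 transcription in T cells, had 1848 to 2835 in Whsc1-KO and 1397 to 3959 in WT, or -0.12 on the log2 scale (adjusted p = 0.646). Cd69, whose product pulls S1pr1 from the cell surface, was at 0.0018 (adjusted p = 0.994). Both were named after their values were seen. Without Whsc1-KO replicates 4 to 6, 3 of the 16 were lower, near the 15.6% of all genes.

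**Figure D4:**
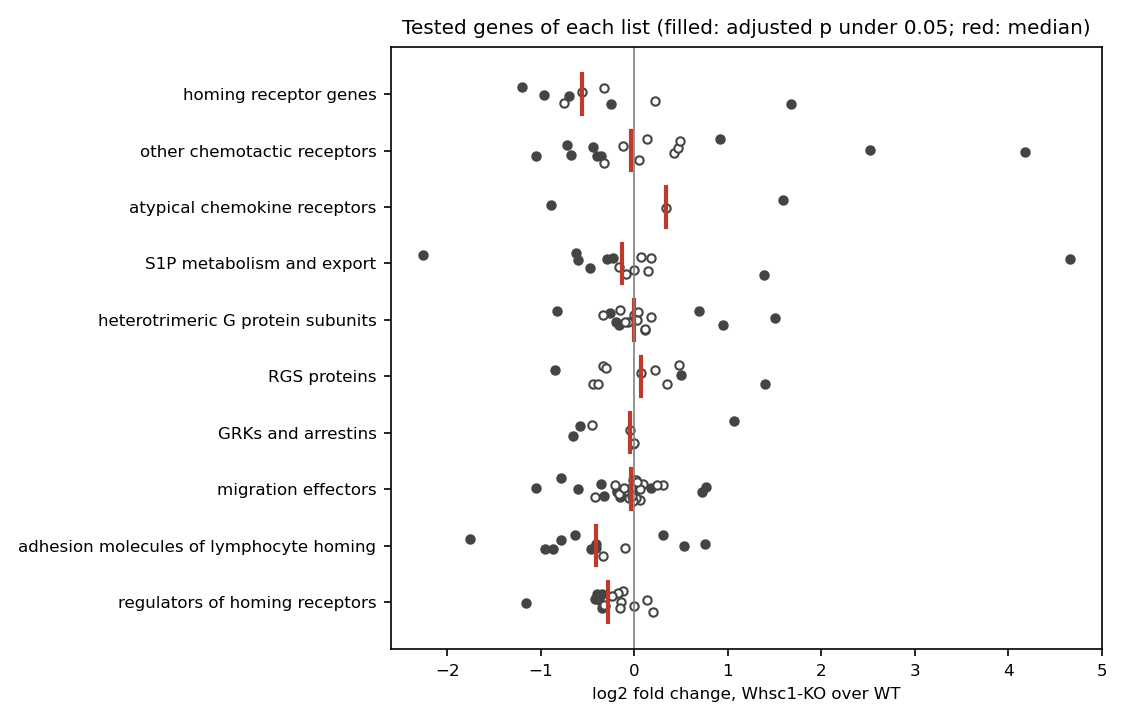
Log2 fold change of Whsc1-KO over WT (horizontal axis) of every tested gene in 10 gene lists, one point a gene, filled where the adjusted p was under 0.05, with a red line at each list's median. With all libraries the homing receptor median is -0.56, the adhesion median -0.41 and the regulator median -0.28. The medians of the other lists with more than 3 tested genes lie between -0.13 and 0.07.

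Genes with the most similar pattern were found from log2 values after each genotype's mean was taken away, over all 13 libraries, and are given as a description, since the points share libraries and scaling and each gene was picked for its high r among all tested genes. Gpr183 was closest to Fxyd5 and H2-Oa (Pearson's r = 0.989 and 0.974), and Cxcr4 to Eif2ak3 and Slco4a1 (0.987 and 0.966). Ccr6 was closest to Fcrl1 and Plekho1 (0.984 and 0.984) and Ccr7 to Galnt1 and Mreg (0.974 and 0.967). Gcnt1 was among the genes most like S1pr3 (0.960). For Ccr9 they were Grpel2 and Dcaf10 (0.968 and 0.956), for S1pr4 Plekho2 and Dok3 (0.936 and 0.925), for S1pr1 Mylip and Rnf111 (0.928 and 0.919), and for Cxcr5 Lbh and Svbp (0.885 and 0.879). Within the 7 WT libraries alone these pairs had r from 0.797 (S1pr3 with Gcnt1) to 0.987 (Ccr7 with Mreg). Fcrl1, an Fc receptor-like protein of B cells, was lower in Whsc1-KO at -1.21 (adjusted p = 0.000482), while Eif2ak3, a kinase of the endoplasmic reticulum stress response, was at -0.06 (adjusted p = 0.592).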

How the data were processed

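Poly-A selected, strand-specific RNA was sequenced in pairs of 76 bases. The submitters' processing notes name DESeq2 1.10.1, RSEM 1.2.28 and STAR 2.5.1b, with GRCm38 as well as mm9 as builds, and give them no role. The authors deposited a signal value per gene and library, a normalized count: in each library 100% of values were whole multiples of 1 step, within 0.05 reads, so they are gene counts divided by a size factor. Per the file headers, the authors' deposited differential expression table has columns of log2 fold change, p-value and Wald score; its values are quoted as the authors'. Replicates are called independent in the series' text.

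The main test was limma 3.58.1 on log2(normalized count + 1), with its mean-variance trend, two-sided, with Benjamini-Hochberg adjustment over the 13947 genes at 10 or more in at least 6 libraries and a threshold of 0.05; fold changes on this scale understate those of low genes. Recovered reads went into DESeq2 1.42.0 and edgeR 4.0.16 as alternatives, in R 4.3.3. Tables, sequences and plots were made with Python 3.11.15, numpy 2.4.6, pandas 2.3.3 and matplotlib 3.10.9. Limma was also run on simulated counts. These were drawn without a split among the Whsc1-KO libraries, so that run does not bear on the split seen here. The closest libraries within a group were Whsc1-KO replicates 4 and 5, whose counts differed by a chi-square per gene of 26.8, above sampling noise. Coordinates and exon lengths are from GENCODE M21 (GRCm38), which matched 47224 of 47643 identifiers.

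The receptor genes, the lists and the splits by replicate were chosen with earlier results of these data known. Named genes are the receptors, Whsc1, up to 4 tested genes of each list with the smallest adjusted p, and the 2 genes most like each receptor; others are said to be named after their values were seen. A few genes are not reported here. Alternatives covered the pseudocount, filter, scaling, test, library weights, a replicate block, a sex term, the threshold, and libraries left out.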

Additional observations from a re-analysis of the deposited data

Results flagged for a closer look

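Among 96 groups of libraries of the named genes, 5 had a library far from the others, where chance flags about 1 in 20 groups. Ccr9 was 418 normalized counts in WT replicate 5, and the next WT library had 162. In the same library Ackr4 was at 125, with the next at 46.2, and Rasgrp2 at 9295, with the next at 6481. Gng7 was 58.1 in WT replicate 2, with the next at 33.3. Gpr132 was 3373 in WT replicate 3, below the next lowest at 4230. Leaving out WT replicate 5 or any other single library, the call on Ccr9 held, with log2 fold changes from 1.46 to 1.97.

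S1pr3 moved in opposite directions in the replicate sets: its log2 fold change was 0.62 within replicates 1 to 3, where all 3 Whsc1-KO libraries (400 to 812) were above the WT libraries (349 to 387), and -2.10 within the later replicates, where all 3 Whsc1-KO libraries (65.2 to 111) were below the WT libraries (253 to 673). The value within replicates 1 to 3 did not pass (limma adjusted p = 0.0998), and sex and genotype cannot be told apart there. Ccr6 also changed sign, from 0.58 within replicates 1 to 3 (adjusted p = 0.137) to -1.65 within the later replicates. The differences between the replicate sets were not tested.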

How the results depend on the processing

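With all libraries 1 receptor gene was higher and 4 lower, and 3636 of all genes were higher and 3588 lower. With library weights 2 receptor genes were higher and 7 lower, and likewise within the later replicates. Without Whsc1-KO replicates 4 to 6, limma called 0 receptor genes higher and 2 lower (0 and 3 at an unadjusted p under 0.05), and 1947 and 2177 of all genes. Within replicates 1 to 3 limma called 0 higher and 1 lower (3 and 1 at an unadjusted p under 0.05), and 947 and 1222 of all genes; edgeR and DESeq2 were not run on these subsets, and with all libraries each called 1 higher and 4 lower. At a threshold of 0.01, limma called 0 higher and 3 lower, Ccr9 and Cxcr5 being lost. At an unadjusted p under 0.05 with all libraries it called 1 higher and 4 lower. All counts over all genes are at an adjusted p, and none was made at an unadjusted p. Leaving out 1 library at a time gave 1 higher and 3 to 5 lower receptor genes, and 3135 to 3776 higher and 3148 to 3723 lower among all genes.

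These log2 fold changes changed sign: without Whsc1-KO replicates 4 to 6, Cxcr4 (-0.36), Ccr6 (0.41), S1pr3 (0.56) and Grk5 (0.11); within replicates 1 to 3, Cxcr4 (-0.18), Ccr6 (0.58), S1pr3 (0.62), S1pr4 (0.16) and Rgs14 (0.085); and Ackr3 with library weights (-0.074) and within the later replicates (-0.027). The cause was not tested.

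Replicate numbers did not pair the libraries: same-numbered Whsc1-KO and WT libraries had correlations of -0.11 to 0.21 of their deviations, and 2 of 6 correlated best with their own number. With the replicate number as a block, 1 receptor gene was higher and 3 lower, with Cxcr5 at -0.24 (adjusted p = 0.104), and 3024 and 3082 of all genes were called higher and lower.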
